A study of Mus musculus with 8 samples.

Results

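Pax2, Pax8, Lbx1, Gbx1, Tfap2b, Sall3, Lhx1 and Lhx5 encode transcription factors known for the inhibitory neurons of the dorsal spinal cord. Each of the 8 symbols matched 1 of the 19787 genes of a single-nucleus RNA sequencing matrix of the low thoracic mouse spinal cord. The values are UMI counts (each UMI tags 1 captured transcript molecule) of 12447 nuclei in 8 libraries. All mice were wild type of the strain C57BL/6, and the sources used here do not give their ages. In experiment 1, the cords of 2 uninjured replicates were each sorted into traced nuclei, which carried GFP from neurons that project to the lumbar walking centres, and the untraced, GFP-negative remainder. Experiment 2 compared mice with a hemisection followed by natural repair (2 libraries) and uninjured mice (1 library). In experiment 3, GFP-positive nuclei of regenerating neurons were sequenced (1 library). The sources used here do not name the vector or promoter that gave the GFP, or the number of mice in a library. An annotation by the authors names 6 classes of nuclei and, among 4076 neurons, 28 subtypes. In subtype names the leading letters were read as dorsal (D), middle (M) or ventral (V) and as excitatory (E) or inhibitory (I), so that DI stands for dorsal inhibitory. DI held 794 nuclei in 4 subtypes, and all inhibitory neurons (DI, MIP, MIL, VIP and VIL) held 1477 nuclei in 11 subtypes.

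In the embryonic dorsal cord, progenitors that express Ptf1a give rise to GABA and glycine neurons, and these switch on Pax2, Lhx1 and Lhx5 as they leave the cell cycle. Pax2 and Pax8 are paired-box paralogs, and Pax2 is needed there for the inhibitory transmitter program. Lhx1 and Lhx5 are LIM-homeodomain paralogs that work with the cofactor Ldb1. Lbx1 is a homeobox gene that starts out in both the inhibitory and the excitatory late-born dorsal neurons, while Gbx1 is a homeobox gene of a subset of the inhibitory ones. Tfap2b encodes an AP-2 factor that acts after Ptf1a in inhibitory neurons, and Sall3 encodes a spalt-type zinc finger protein. Ventral inhibitory neurons named V1 also carry Pax2, Lhx1 and Lhx5 during development.

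All members are protein-coding genes in the annotation GENCODE M21 (GRCm38). Pax2 lies at chr19:44756045-44837871 on the plus strand and Lbx1 at chr19:45232684-45235812 on the minus strand. Pax8 lies at chr2:24420560-24475599 (minus), Gbx1 at chr5:24502757-24527202 (minus) and Lhx5 at chr5:120431699-120441223 (plus). Tfap2b lies at chr1:19208914-19238576 (plus) and Lhx1 at chr11:84518284-84525535 (minus). Antisense or other transcripts overlap Pax2, Pax8 and Lhx5. None of these is in the matrix, and the sources used here do not say whether counting used strand.

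Promoter windows from RefSeq (GRCm38.p6) matched Pax2, Pax8, Lhx1 and Tfap2b, 4 of the 8 members. The 250 bases before the start are shown for Pax2 and Pax8, whose levels ran together across neuron subtypes, and for Tfap2b, whose level followed theirs less closely, at windows that overlap no annotated exon. For Pax2 another such window, at chr19:44746351-44746600, lies farther from the annotated start of the gene and is not shown. The Tfap2b window lies inside the annotated gene, downstream of its start at chr1:19208914, so it precedes another start. Capitals mark a match to the searched motifs GCCNNNGGC (an AP-2 type palindrome), TAATTA (a homeodomain type site) or TGGGAA, on either strand. The motif CANNTG was searched too and is not marked.
Pax2, chr19:44755502-44755751, plus strand: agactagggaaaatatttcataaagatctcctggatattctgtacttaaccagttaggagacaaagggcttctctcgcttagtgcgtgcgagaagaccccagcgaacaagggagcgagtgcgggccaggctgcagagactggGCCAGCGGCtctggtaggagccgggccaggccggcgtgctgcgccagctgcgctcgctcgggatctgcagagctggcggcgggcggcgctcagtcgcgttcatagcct
Pax8, chr2:24475600-24475849, minus strand: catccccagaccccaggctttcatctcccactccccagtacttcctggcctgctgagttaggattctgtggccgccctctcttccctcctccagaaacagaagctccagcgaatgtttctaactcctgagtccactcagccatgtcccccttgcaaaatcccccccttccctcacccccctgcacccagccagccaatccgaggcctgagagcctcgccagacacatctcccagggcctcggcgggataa
Tfap2b, chr1:19211804-19212053, plus strand: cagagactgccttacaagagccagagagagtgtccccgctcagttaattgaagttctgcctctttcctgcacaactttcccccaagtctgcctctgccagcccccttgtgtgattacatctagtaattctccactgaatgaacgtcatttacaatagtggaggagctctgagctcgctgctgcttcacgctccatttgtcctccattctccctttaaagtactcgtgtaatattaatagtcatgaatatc
The Pax2 window shown held 1 match to GCCNNNGGC, 108 bases before the start, and the Pax8 and Tfap2b windows held no capitals. The other Pax2 window held 1 TGGGAA, 149 bases before its start, and no GCCNNNGGC. The unmarked CANNTG had 1 match in the Pax2 window shown, 64 bases before the start, and 1 in the Tfap2b window, 58 bases before. The Pax8 window and the other Pax2 window held 0. Of 32851 windows of 250 bases, 13.7% held GCCNNNGGC, 4.84% TAATTA, 21.6% TGGGAA and 66.2% CANNTG. The GC content was 60.8% in the Pax2 window shown, 52.8% in the other Pax2 window, 60.4% in the Pax8 window and 46.4% in the Tfap2b window, with a median of 52.4% over all windows.

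The libraries differed widely in the number of neurons and in depth. Traced replicates 1 and 2 held 80 and 25 neurons, untraced replicates 354 and 123, hemisection replicates 1000 and 108, the uninjured library 2148 and the regenerating library 238. Median depth was 5767 to 16489.5 UMIs per neuron, except in the regenerating library, where it was 488. There 3 counts of a gene correspond to 22.2 CPM, a gene's counts relative to the UMI total of the same nuclei. The traced replicates held only 3 and 1 DI nuclei, 3.75% and 4.00% of their neurons, against 20.3% and 26.0% in the untraced replicates, 18.2% and 21.3% after hemisection, 21.0% in the uninjured and 12.6% in the regenerating library. Non-neuronal nuclei of the uninjured library carried neuronal transcripts: Snap25, a gene of synaptic vesicle fusion, stood at 583 CPM in its microglia and at 13.6 to 40.8 CPM in the microglia of the untraced and hemisection libraries. Of 7716 barcode sequences, 4 occurred in more than 1 library. The 4489 non-neuronal nuclei of the uninjured library and all 238 regenerating nuclei are named without a barcode sequence, while the uninjured neurons carry one. Whether several preparations were joined there was not tested, and this touches every glial value of the uninjured library below.

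Cell types are described over the untraced, hemisection and uninjured libraries with at least 10 nuclei of a type. They carry no test, because the types come from clustering the same nuclei. Pax2 and Pax8 were inhibitory genes throughout. Pax2 stood at 306 ± 74.9 CPM (SD, n = 5 libraries) in DI, at 239 ± 76.3 (n = 2) in MIP and at 136 ± 32.1 (n = 3) in VIP. The DI and MIP ranges overlapped, and VIP lay below both. VIL and MIL followed at 88.0 ± 30.4 and 59.8 ± 16.2 CPM (n = 3 each), with overlapping ranges. The highest type outside the inhibitory ones was VEP at 8.78 ± 3.57 CPM (n = 3). Pax8 stood at 158 ± 35.5 CPM (n = 5) in DI and 92.9 ± 37.4 (n = 2) in MIP, which did not overlap. MIL, VIP and VIL followed at 70.1 ± 32.7, 46.9 ± 24.8 and 23.9 ± 15.6 CPM (n = 3 each), each overlapping the next. Of the 1658 Pax2 counts in neurons of the uninjured library, 94.0% came from inhibitory nuclei, which held 43.1% of the neuronal UMIs, and 57.9% from DI nuclei, which held 20.4%. For Pax8, 95% of 778 counts came from inhibitory and 73.8% from DI nuclei.

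**Figure D1:**
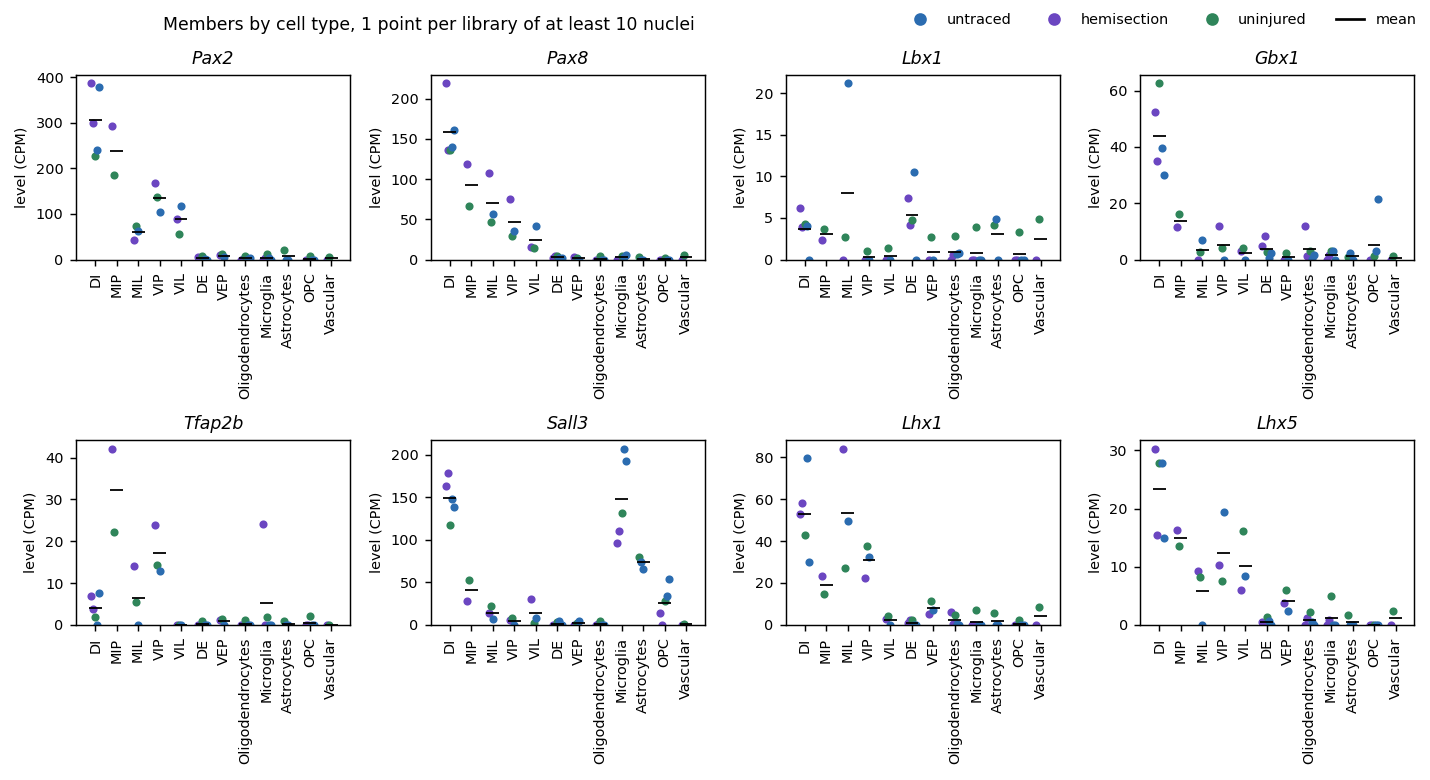
Level (CPM, linear axis from 0) of each gene by neuron family or class, with 1 point for each untraced, hemisection or uninjured library of at least 10 nuclei and a bar at the mean. Pax2, Pax8, Gbx1 and Lhx5 are highest on average in DI, Tfap2b in MIP and VIP, and the Sall3 points of microglia span 96.6 to 207 CPM beside 118 to 178 CPM in DI.

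Lhx1 was about as high in MIL as in DI, and low in VIL. It stood at 53.6 ± 28.6 CPM (n = 3) in MIL and 52.7 ± 18.5 (n = 5) in DI, with overlapping ranges, and at 30.8 ± 7.82 (n = 3) in VIP and 19.1 ± 6.11 (n = 2) in MIP. VIL, at 2.35 ± 2.10 CPM (n = 3), lay below all of these. Lhx5 stood at 23.3 ± 7.41 CPM (n = 5) in DI, 15 ± 2.01 (n = 2) in MIP, 12.4 ± 6.24 (n = 3) in VIP and 10.2 ± 5.32 (n = 3) in VIL and 5.85 ± 5.10 (n = 3) in MIL, and each of these overlapped the next. Inhibitory nuclei gave 83.8% of the 371 Lhx1 counts and 83.3% of the 198 Lhx5 counts of uninjured neurons. DI alone gave 48.8% and 59.6%.

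Among neurons, Gbx1 and Sall3 were the members most concentrated in DI. Gbx1 stood at 43.9 ± 13.3 CPM (n = 5) in DI and at 13.9 ± 3.04 (n = 2) in MIP, without overlap. All other families and classes had means under 10 CPM. DI gave 81.0% of the 327 Gbx1 counts and 81.4% of the 613 Sall3 counts of uninjured neurons. Among neurons Sall3 stood at 149 ± 23.2 CPM (n = 5) in DI and at 40.5 ± 17.6 (n = 2) in MIP, with MIL and VIL at 14.3 ± 7.42 and 13.7 ± 14.4 (n = 3 each).

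Tfap2b did not follow the label of a dorsal inhibitory factor in this cord. It stood at 32.1 ± 14.1 CPM (n = 2) in MIP, whose only subtype is named after it, and at 17.1 ± 6.00 (n = 3) in VIP. DI had 4.03 ± 3.2 CPM (n = 5) from 21 counts. Only 9.8% of the 82 Tfap2b counts of uninjured neurons came from DI, although 82.9% came from inhibitory nuclei. In the uninjured library 1.11% of DI nuclei (95% exact binomial interval 0.361 to 2.57) had a Tfap2b UMI, against 0.379% of oligodendrocytes (0.196 to 0.662), at median depths of 9029 and 3346.5 UMIs. Thinned to 2000 UMIs per nucleus, the shares were 0.222% and 0.265%, so in this library Tfap2b in DI as a whole could not be told apart from background. By subtype, DI_Rorb held 6 counts there, in 3.45% of 87 nuclei without thinning. DI_Pdyn_Gal and DI_Nxph1_Npy held 1 count each and DI_Npy 0. DI_Rorb was singled out after its values were seen. After hemisection DI held 11 Tfap2b counts in 205 nuclei (5.38 ± 2.13 CPM, n = 2), 10 of them in 5 nuclei of replicate 1. Oligodendrocytes of those libraries held 0 in 827 nuclei, where 3 counts would give 18.1 and 1.72 CPM. In the untraced libraries DI held 2 counts in 104 nuclei and oligodendrocytes 0 in 1776.

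Lbx1 was not concentrated in inhibitory neurons. It had 70 counts in the 2148 neurons of the uninjured library, 61.4% of them in excitatory nuclei, which held 54.1% of the UMIs, and 25.7% in DI. DE, the dorsal excitatory family, stood at 5.39 ± 3.93 CPM and DI at 3.66 ± 2.25 (n = 5 each), with overlapping ranges. MIL had 7.97 ± 11.5 CPM (n = 3) from 4 counts, with a lowest library at 0. Thinned shares of nuclei with an Lbx1 UMI were 1.11% (0.361 to 2.57) in DI, 0.891% (0.385 to 1.75) in DE and 0.629% (0.379 to 0.98) in oligodendrocytes, and their intervals overlap. Over the same 5 libraries, 12, 44 and 11 counts gave 16.5, 15 and 10.4 CPM in DE_Cck_Cpne4, DE_Maf_Cpne4 and DE_Nts, against 5.73 CPM from 14 counts in DI_Nxph1_Npy. Oligodendrocytes of the uninjured library stood at 2.80 CPM. The 3 named excitatory subtypes were chosen after their values were seen.

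The 4 DI subtypes carried different sets of members, described here by the lowest, median and highest library of at least 10 nuclei. Pax2 and Pax8 were present in all 4. Pax2 was at 373, 449 and 473 CPM in DI_Npy (3 libraries) and 283, 375 and 520 in DI_Pdyn_Gal (4 libraries), against 131, 157 and 385 in DI_Nxph1_Npy (4 libraries) and 119, 158 and 220 in DI_Rorb (3 libraries). Lhx1 was at 65.9, 124 and 153 CPM in DI_Nxph1_Npy, 27.3, 109 and 113 in DI_Npy and 46.6, 68.6 and 70.0 in DI_Rorb. In DI_Pdyn_Gal, named for the opioid peptide gene Pdyn and the galanin gene Gal, Lhx1 was at 0, 2.03 and 7.27 CPM, below every library of the other DI subtypes. Lhx5 ran from 18.2 to 32.1 CPM in the same DI_Pdyn_Gal libraries. Pooled over the 5 libraries, the 276 DI_Pdyn_Gal nuclei held 6 Lhx1 counts in 2588103 UMIs and the 284 DI_Nxph1_Npy nuclei held 210 in 2442061 UMIs.

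Sall3 left out another subtype. It was at 0 in DI_Npy in all 3 libraries, and the 66 DI_Npy nuclei pooled over 5 libraries held 1 Sall3 count (1.59 CPM, where 3 counts would give 4.76). DI_Rorb was at 139, 238 and 333 CPM, DI_Nxph1_Npy at 154, 196 and 238, and DI_Pdyn_Gal at 69.0, 89.1 and 135. DI_Pdyn_Gal thus lay below DI_Nxph1_Npy and DI_Rorb in all libraries of at least 10 nuclei. Gbx1 had its highest median in DI_Nxph1_Npy (43.8, 70.0 and 94.5 CPM), with overlap with the other DI subtypes.

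Outside DI, the subtypes with V1 in their names differed. In VIP_V1_Foxp2 (3 libraries) Pax2 was at 81.7, 134 and 164 CPM, Lhx1 at 16.6, 35.0 and 35.5 and Tfap2b at 7.78, 13.1 and 16.6. Sall3 was at 0, 0 and 4.65 CPM there. VIP_V1_Mafa, with 39 nuclei in the uninjured library, had only this 1 library of at least 10 nuclei. Its levels were 152 CPM for Pax2, 49.8 for Lhx1, 21.3 for Tfap2b and 23.7 for Sall3. VIL_V1_Sp8 (2 libraries) had Pax2 at 35.4 and 40.7 CPM, Lhx1 at 5.06 and 6.10 CPM and Tfap2b at 0 in both. Sall3 was at 2.03 CPM in its uninjured library and at 50.6 CPM in the other. VIL_V0d_Bhlhe22 (2 libraries) had Pax2 at 88.0 and 169 CPM and Lhx5 at 7.36 and 28.0 CPM, with Lhx1, Gbx1 and Tfap2b at 0 in both. Its 2 libraries are few nuclei, and zeros at this depth do not show absence.

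**Figure D2:**
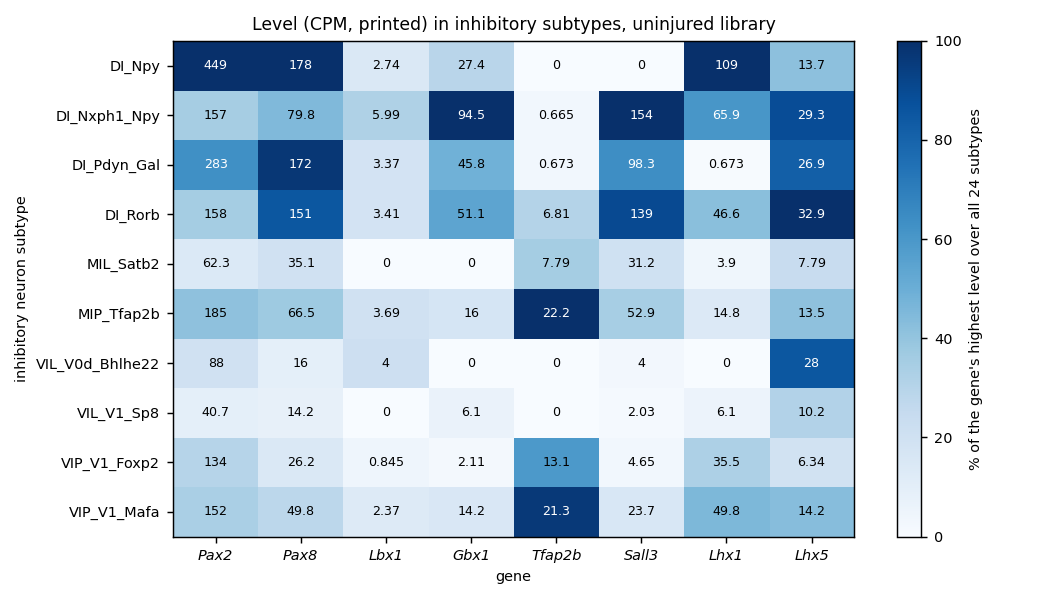
Heat map of the 8 genes (columns) in the inhibitory subtypes of the uninjured library with at least 20 nuclei (rows); the printed number is the level in CPM and the colour its percentage of the gene's highest level over all 24 subtypes. Lhx1 is at 0.673 CPM in DI_Pdyn_Gal, Sall3 at 0 in DI_Npy, and Tfap2b is highest in MIP_Tfap2b at 22.2 CPM.

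Single DI nuclei held combinations of these genes. In the uninjured library a UMI was found for Pax2 in 70.1% of 451 DI nuclei, Pax8 in 59.9%, Sall3 in 54.3%, Gbx1 in 36.8%, Lhx1 in 27.3%, Lhx5 in 22.6% and Lbx1 in 3.77%. Shares depend on depth, and after thinning to 2000 UMIs they were 32.8%, 22.6%, 21.7%, 12.6%, 7.54%, 4.88% and 1.11%. Oligodendrocytes had 2.91% for Pax2 (1.49% thinned) and 1.58% for Pax8 (0.926% thinned). At least 2 members were found in 83.1% of DI nuclei, 73.4% of 79 MIP nuclei and 48.9% of 221 VIP nuclei, against 1.87% of 910 DE nuclei and 0.442% of 3164 oligodendrocytes. These shares for at least 2 members were not thinned, and depth differed between the types. The most was 6 members, in 7 DI nuclei. Pax8 was found in 65.5% of DI nuclei with a Pax2 UMI and in 46.7% of those without, and their median depths were 9399.5 and 7806 UMIs. Sall3 was found in 64.5% of DI nuclei with a Gbx1 UMI and 48.4% of those without (median depths 9372 and 8621 UMIs).

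**Figure D3:**
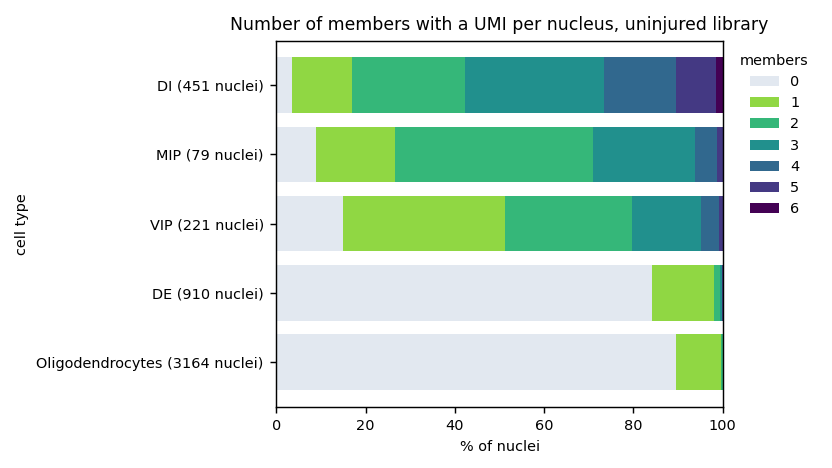
Percentage of nuclei (x axis) of 5 cell types of the uninjured library (rows) by the number of members with at least 1 UMI (colours, 0 to 6). DI has 16 of 451 nuclei with no member, while 84.1% of DE nuclei and 89.6% of oligodendrocytes have none. The nuclei were not thinned to equal depth.

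Across the 24 subtypes of the uninjured library with at least 20 nuclei, the pattern of Pax2 was nearest to that of Pax8 (Pearson r = 0.90 over log2 levels), Slc6a5 (0.88), which encodes the glycine transporter of glycine neurons, and Gad2 (0.88), which encodes a GABA-synthesising enzyme. Pax8 was nearest to Pax2, the vesicular inhibitory transporter gene Slc32a1 (0.87) and Gad1 (0.85). Lhx5 was nearest to Nox4 (0.85), Pax2 (0.82) and Gad2 (0.79), and Lhx1 to Ss18l1 (0.71), Sez6 (0.70) and Pax2 (0.68). Near Gbx1 were Pax8 (0.78) and Gpc3 (0.75), and Sall3 was nearest to Nox4 (0.75), the Wnt antagonist gene Sfrp1 (0.72) and Pax8 (0.72). The nearest genes of Tfap2b were Aopep (0.74), Ublcp1 and Syt12 (0.69 each), and those of Lbx1 were the cerebellin gene Cbln1 (0.74), Epb41l2 (0.70) and Gpr158 (0.69). Tfap2b and Lbx1 had only 82 and 70 counts over all neurons of that library, so their nearest genes rest on few UMIs. Between Tfap2b and Pax2 r was 0.46, between Tfap2b and Pax8 0.45 and between Tfap2b and Lhx5 0.25. Between Pax2 and Lbx1 it was 0.18. The points share a library, so these values are a description. They were ranked among 7430 genes whose mean reached 20 CPM.

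Sall3, at chr18:80966376-80986771 on the minus strand, was also present in glia. In microglia it stood at 207 and 192 CPM in the untraced replicates, 96.6 and 110 after hemisection and 131 in the uninjured library, a mean of 147 ± 49.6 (n = 5) whose range overlapped that of DI. Astrocytes had 73.3 ± 7.02 CPM (n = 3), and oligodendrocyte precursors 25.9 ± 20.4 (n = 5). Oligodendrocytes of the uninjured library stood at 4.37 CPM. By counts, DI of that library held 499, astrocytes 193 and microglia 134. In that library 26.8% of 366 microglia had a Sall3 UMI (23.4% of 299 after thinning) and 24.9% of astrocytes (14.0%), against 1.42% of oligodendrocytes (1.09%). The microglia had the lower depth of the 2 (medians 2574.5 and 3346.5 UMIs). Sall1, the paralog known as an identity factor of microglia, stood at 291 and 210 CPM in untraced, 121 and 79.2 in hemisection and 161 CPM in uninjured microglia. In the untraced replicates, where microglial Sall3 was highest, Snap25 was at 24 and 40.8 CPM and Gad1 at 3.00 and 0 CPM. The highest value of another member in the microglia of the 5 libraries was 24.2 CPM for Tfap2b, from 2 counts in hemisection replicate 1.

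Traced and untraced neurons were compared to ask which neurons of the uninjured cord project to the lumbar walking centres. Sall3 fell in traced neurons, and the other members did not pass the test. Sall3 stood at 3.44 and 6.00 CPM in the traced replicates, from 7 counts in 4 nuclei, and at 36.5 and 43.6 CPM in the untraced replicates. Both traced libraries lay below both untraced ones, with a log2 fold change of −3.34 ± 0.48 (SE; edgeR quasi-likelihood test, adjusted p = 0.00672). Of the 11601 tested genes 0.362% were called at an adjusted p under 0.05, and 1 of the 7 members that passed the filter on low counts was. Lbx1 did not pass it, with 5 traced and 22 untraced counts (ratio of CPM 0.560, 95% counting interval 0.166 to 1.52). Leaving out traced replicate 1 ended the Sall3 call, at −2.82 (adjusted p = 0.243).

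Pax2 stood at 19.3 and 63.0 CPM in traced and 74.7 and 135 CPM in untraced neurons, and Pax8 at 17.2 and 9 against 39.6 and 55.9 CPM. As for Sall3, traced and untraced libraries did not overlap for either gene. The share of all tested genes that separate in this way is not given here. The log2 fold changes were −1.75 ± 0.41 for Pax2 (adjusted p = 0.0843) and −1.64 ± 0.36 for Pax8 (adjusted p = 0.0633). With the replicate number as a block the same edgeR test called 1.22% of genes. Among them were Pax2 at −1.65 (adjusted p = 0.00147), Pax8 at −1.55 (adjusted p = 0.0256) and Sall3 at −3.28 (adjusted p = 0.00129). Lhx1 was at 9.64 and 9 CPM in traced and 22.8 and 15.7 CPM in untraced neurons (−1.12, adjusted p = 0.452). Gbx1 was at 2.07 and 6.00 against 9.41 and 10.1 CPM (−1.76, adjusted p = 0.412).

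Lhx5 and Tfap2b overlapped between the groups. Lhx5 was at 3.44 and 15 CPM in traced and 9.12 and 6.71 CPM in untraced neurons (−0.45, adjusted p = 0.951). Tfap2b was at 5.51 and 0 against 2.85 and 3.36 CPM (0.44, adjusted p = 0.978). The median log2 fold change was −1.64 over the 7 members and −0.00 over all tested genes. Beside these values stand the shares of DI nuclei, 3.75% and 4.00% in traced and 20.3% and 26.0% in untraced neurons. In sums over neurons, fewer nuclei of a type and less RNA per nucleus cannot be told apart.

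Within inhibitory neurons alone, only traced replicate 1 had at least 10 nuclei (11). Its Pax2 level was 124 CPM against 173 and 306 in untraced inhibitory neurons (log2 fold change −0.88, adjusted p = 0.627), and its Pax8 level of 119 CPM lay between 97.3 and 130 (0.12, adjusted p = 0.969). Sall3 stood at 23.8 CPM against 85.2 and 101 (−1.93, adjusted p = 0.369), and Tfap2b at 28.6 against 7.16 and 7.98 (1.95, adjusted p = 0.635). None of the 6 tested members was called, beside 0.121% of 9057 genes. Without untraced replicate 1, Pax2 was at −1.33. That fit had 1 traced and 1 untraced library, with different replicate numbers. All 7 Sall3 counts and all 28 Pax8 counts of the traced neurons came from inhibitory nuclei, while 12 of the 17 Lhx1 counts and 7 of the 10 Lhx5 counts came from excitatory ones.

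**Figure D4:**
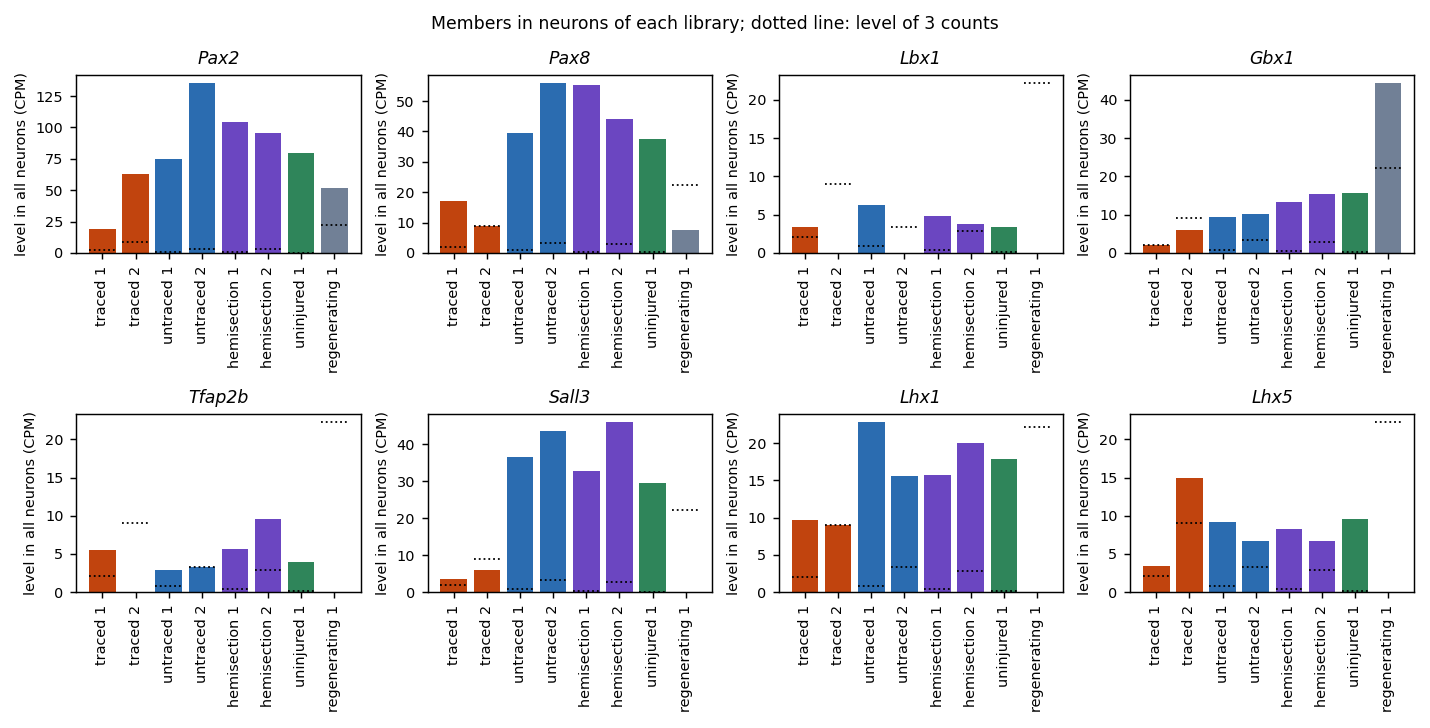
Level of each gene in all neurons of each library (CPM, bars from 0, colours by group); the dotted line marks the level of 3 counts. Sall3 is at 3.44 and 6.00 CPM in traced neurons against 29.6 to 45.9 CPM in the untraced, hemisection and uninjured libraries, and in the regenerating library 3 counts would already stand at 22.2 CPM.

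Other genes of inhibitory neurons were compared by lists. Of 5 transmitter genes of inhibitory neurons 2 were called lower, among them Gad1, which fell by 1.62 on the log2 scale in the traced fraction (adjusted p = 0.0311), and Gad2 was at −1.25 (adjusted p = 0.136; 0.0358 with the block). Of 9 peptide and marker genes 1 fell, Npy, the neuropeptide Y gene, by 2.37 (adjusted p = 0.0406). Of 7 tested factors of inhibitory dorsal neurons 2 rose, Meis2 by 1.61 (adjusted p = 0.00778) and Zfhx3 by 1.15 (adjusted p = 0.0311). Of 9 tested paralogs and cofactors 1 fell, Lmo3, which encodes a LIM-only protein, by 1.26 (adjusted p = 0.0365). None of the 6 tested selectors of dorsal excitatory neurons was called. The summed level of 8 oligodendrocyte markers was 72 CPM in both traced and 229 and 254 CPM in the untraced replicates, and its part in these results was not tested.

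The comparison after hemisection asked what natural repair changes in thoracic neurons, and the members did not pass its test. Of 11601 genes 5.56% were called in neurons and of 9057 genes 4.86% in inhibitory neurons, against 0 of 7 and 0 of 6 tested members. At an unadjusted p under 0.05 there were 0 and 1 members, beside 19.1% and 17.1% of genes, and DESeq2 also called 0 of those to which it gave an adjusted p. Pax2 stood at 105 and 95.6 CPM after hemisection and 79.9 CPM in uninjured neurons (0.44 ± 0.37, adjusted p = 0.569), and Pax8 at 55.4 and 44.0 against 37.5 CPM (0.54 ± 0.30, adjusted p = 0.345). Sall3 was at 32.7 and 45.9 against 29.6 CPM (0.46 ± 0.31, adjusted p = 0.468). For these 3 genes both hemisection libraries lay above the uninjured one, which has no replicate. The share of all tested genes in that order is not given here.

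Lhx1 was at 15.7 and 20.1 CPM after hemisection and 17.9 CPM in uninjured neurons (0.04 ± 0.35), so that the uninjured library lay between them. Lhx5 was at 8.23 and 6.69 against 9.55 CPM (−0.20 ± 0.53), Gbx1 at 13.3 and 15.3 against 15.8 CPM (−0.08 ± 0.38) and Tfap2b at 5.65 and 9.56 against 3.95 CPM (0.91 ± 0.73). Lbx1 was at 4.79 and 3.82 against 3.38 CPM, a ratio of 1.39 (95% counting interval 0.926 to 2.06). Within inhibitory neurons the largest of the member changes with an adjusted p were Tfap2b at 1.14 ± 0.59 (adjusted p = 0.346), Pax8 at 0.65 ± 0.26 (adjusted p = 0.210) and Sall3 at 0.61 ± 0.28 (adjusted p = 0.294). With DI nuclei alone, a fit chosen with the data in view, the values were 0.68 for Pax2, 0.51 for Pax8, 0.59 for Sall3, 0.41 for Lhx1 and −0.36 for Gbx1, and 0 of these were called, beside 2.77% of 8768 genes.

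The median log2 fold change was 0.44 over the 7 members and 0.03 over all genes in neurons. Some of the lists held calls. With 5.56% of genes called in neurons, 0 of 7 tested members does not set the members apart. Of the 5 inhibitory transmitter genes 1 fell, Slc32a1, by 2.72 in log2 units (adjusted p = 4.98e-05). Over the 5 genes 3 values were positive and 2 negative, with a median of 0.24. Of the 9 peptide and marker genes 2 fell, Npy by 1.90 and the galanin gene Gal by 2.25. Of the 7 tested factors of inhibitory dorsal neurons 1 fell, Prdm8, by 1.89. None of the 9 tested paralogs and cofactors and none of the 6 tested excitatory selectors was called. All of these list values share the 1 uninjured library, and their values against the untraced neurons are not given here. The uninjured neurons also carried 727 CPM of the 8 oligodendrocyte markers, against 77 and 172 CPM after hemisection, and all 8 were called lower. Of 4 tested astrocyte markers 2 were called lower, and of 5 tested microglia markers 1 was called higher and 2 lower. The part of these markers in the members' values was not tested. With the untraced neurons as the uninjured reference, Sall3 was at −0.04, Gbx1 at 0.55 and Lhx1 at −0.21.

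**Figure D5:**
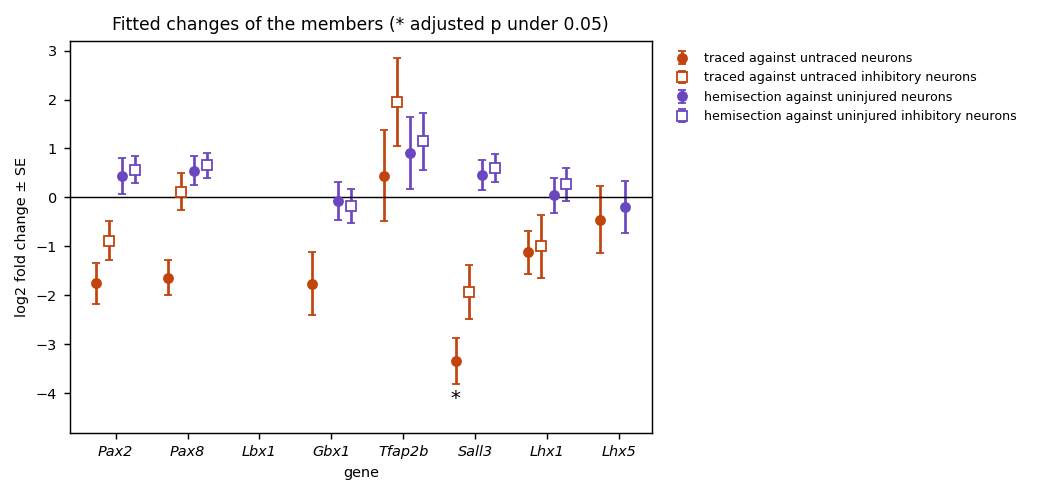
Fitted log2 fold changes (points) with their standard errors (bars) of the members in 4 comparisons; genes without a point did not pass the filter on low counts or had 3 or fewer counts in a group. Sall3 in traced against untraced neurons, at −3.34, has the 1 adjusted p under 0.05, and the changes after hemisection lie between −0.20 and 1.14.

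In microglia, Sall3 stood at 96.6 and 110 CPM after hemisection, against 131 CPM without injury (log2 fold change −0.30 ± 0.40, edgeR adjusted p = 0.696), while 20.4% of 8283 genes were called. This fit was added after Sall3 was seen in microglia. Against the untraced microglia, at 207 and 192 CPM, the value was −0.96 (adjusted p = 0.0939). The hemisection libraries lay below all uninjured ones, and the share of all tested genes in that order is not given here.

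In the regenerating library most members were not detectable at its depth. It held 7 Pax2 counts (51.8 CPM), 6 Gbx1 counts (44.4 CPM), 1 Pax8 count and no count of the other 5 members, for which 3 counts would give 22.2 CPM, above the level of Lbx1, Tfap2b, Sall3, Lhx1 and Lhx5 in either traced library. Pax2 was at 0.70 ± 0.88 in log2 units against traced neurons (adjusted p = 0.708). Gbx1 had 5 counts in the traced neurons and was at 3.89 ± 0.94 (adjusted p = 0.122), and it was called without the filter on low counts (3.86, adjusted p = 0.0266). All 6 Gbx1 counts lay in 3 nuclei, 3 of them in 1 nucleus, and 4 in DI nuclei. None of the tested members was called, beside 0.276% of 11601 genes.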

How the data were processed

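The authors deposited a matrix of UMI counts per gene and nucleus without normalization, with gene symbols and an annotation of each nucleus (library, class, subtype), used as deposited. The submitters' processing notes name Cell Ranger 4.0.0, Seurat 3, mm10 and GRCm38. The sources used here give no filters, doublet removal or annotation method, and no further filter or doublet caller was applied. Members were matched by symbol. The members and gene lists were chosen with earlier results of these data known.

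Counts were summed per library over nuclei of a type and divided by the summed UMIs (CPM). Sums of neurons, of inhibitory neurons (libraries with at least 10 nuclei) and of microglia (at least 20) were tested with edgeR 4.0.16 in R 4.3.3 (TMM, filterByExpr with a minimum count of 10 and total of 15, glmQLFit and glmQLFTest), with a coefficient per group over all libraries. Groups of 1 library borrow the spread of the replicated groups. Adjusted p-values are Benjamini-Hochberg values of this test over all genes tested. Alternatives were RLE size factors, no filter, DESeq2 1.42.0, a replicate block, leaving out libraries, and the untraced libraries as uninjured reference. The test was checked on simulated counts.

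Titles number the replicates of experiment 1 without saying whether each is 1 animal. A traced and an untraced fraction with 1 number were taken as a pair. Their replicate differences correlated at 0.205 over 7030 genes (2 pairs). Nothing says that hemisection libraries came from separate mice, so p-values measure the spread between libraries. All 8 members are named in each comparison, the 2 to 4 genes of smallest p of each list, and the 3 nearest genes of each member by Pearson correlation of log2(CPM + 5), except for a few items that are not reported here. Shares were thinned to 2000 UMIs per nucleus, leaving out 141 oligodendrocytes, 67 microglia, 35 astrocytes and 12 DE nuclei. Intervals and floors (3 counts) are 95% and cover only counting error. The annotation was GENCODE M21 (GRCm38).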

Additional observations from a re-analysis of the deposited data

Results flagged for a closer look

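The log2 ratio of hemisection to uninjured Sall3 CPM was 0.47 and 0.60 in the hemisection replicates in DI nuclei and −0.44 and −0.26 in microglia. The means differed by 0.89, since both libraries moved up in one cell type and down in the other. This difference was not tested, and both ratios share the 1 uninjured library.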

How the results depend on the processing

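Of 200 single-gene values under an alternative, 179 kept their direction and side of the threshold, 9 gained a call, 1 lost it and 11 changed sign. None of these 11 was called in either fit, and the cause was not tested. Another 13 values were left out, 12 with no adjusted p from DESeq2 (Sall3 in traced neurons among them) and 1 with a group at 0. Signs changed for Lhx5 in traced neurons (−1.29 to 0.73 with a replicate left out), Pax8 in traced inhibitory neurons (−0.15 to 0.31) and Pax2 in regenerating neurons (−0.23 to 1.33). In hemisection neurons Lhx1 was at −0.0255 with RLE factors and −0.10 to 0.31 with a replicate left out, and Gbx1 at −0.16 to 0.10. With the untraced reference Gbx1, Sall3 and Lhx1 were at 0.55, −0.0407 and −0.21 in neurons, and Gbx1 and Lhx1 at 0.35 and −0.22 in inhibitory neurons.

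Counts of called genes moved more. Traced neurons had 42 calls, 234 with no filter, 141 with the replicate block and 19 to 93 with a replicate left out. Hemisection neurons had 645 calls, 1101 with no filter, 137 with DESeq2, 1344 with the replicate block, 22 with the untraced reference and 171 to 327 with a replicate left out. Regenerating neurons had 32 calls, 185 with no filter, 59 with the replicate block and 0 to 28 with a replicate left out (edgeR; the 0 came with 1548 genes at an unadjusted p under 0.05). Traced inhibitory neurons had 11 calls, 73 with no filter and 26 to 114 with a replicate left out. Hemisection inhibitory neurons had 440 calls, 798 with no filter, 30 with DESeq2, 6 with the untraced reference, 243 with DI nuclei only and 286 to 453 with a replicate left out. Hemisection microglia had 1686 calls, 324 with DESeq2, 636 with the untraced reference and 412 to 1840 with a replicate left out. Thinning lowered the shares of DI nuclei to 32.8% (Pax2), 22.6% (Pax8), 1.11% (Lbx1), 12.6% (Gbx1), 0.222% (Tfap2b), 21.7% (Sall3), 7.54% (Lhx1) and 4.88% (Lhx5).

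No paired analysis was possible within inhibitory neurons because the fractions there share 1 replicate number, and leaving out their only traced library was not run. The block is a term for the replicate numbers of experiment 1 only: it pairs nothing in hemisection, uninjured or regenerating libraries, which share its estimate of the spread. It changed no other call of a member. The traced replicates rest on 105 neurons, the uninjured group on 1 library, and the regenerating library on 135012 UMIs.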

Other observations

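Among the Sall paralogs, Sall2 was highest in astrocytes of the uninjured library at 91.8 CPM and stood at 12.8 CPM in DI, and Sall1 was at 4.49 CPM in DI. The LIM cofactor gene Ldb2 was at 785 CPM in DE and 149 CPM in DI, and Ldb1 at 23.5 and 19.1 CPM. These are single-library values with no test.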
